A study of Mus musculus with 12 samples.

Results

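ABC transporters were followed in E0771 cells, a mouse mammary tumor cell line, as the rows of the deposited expression table whose symbol is ABC, a subfamily letter from A to G and a number. The rule found 50 genes among the 24197 rows of the table: 16 of subfamily A, 10 of B, 10 of C, 4 of D, 1 of E, 3 of F and 6 of G. RNA was sequenced from 4 groups of 3 independent cultures each, and the table gives 1 value per gene and group, the authors' mean in FPKM (fragments per kilobase of transcript per 1000000 reads). Control cells received vehicle and were collected at 72 h. The 4HC group received 4.2 µM 4-hydroperoxy-cyclophosphamide, an activated form of the alkylating drug cyclophosphamide, for 4 h and was collected 68 h after the drug was washed off. The 4HC + anti-IFNAR1 group received the same exposure with 10 µg/mL of a blocking antibody (clone MAR1-5A3) to the type I interferon receptor, which stayed on the cells until collection. The IFNβ group received 27.8 U/mL of recombinant mouse interferon for 4 h and was collected 2 h later. Its characteristics label describes this collection as synchronized with the 72 h controls. Per the characteristics label and the study's methods the interferon time is 2 h, whereas the protocol label gives 68 h. No group received the antibody alone or a control antibody, and the methods and the label differ on the number of cells plated for IFNβ. The group means carry no spread between cultures, so none of the values below has an SD or an interval. The ratio and adjusted P columns of the authors' own comparisons stand in the same table and were not used here, and no test was run on the differences below.

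ABC proteins bind ATP at a pair of conserved nucleotide-binding domains. Most use it to move a substrate across a membrane: drugs and glutathione conjugates out of the cell, sterols and phospholipids between membranes, peptides, heme precursors, acyl-CoA or cobalamin into or out of organelles. Members of subfamilies E and F lack membrane segments and act on ribosomes and translation. In tumor cells the family is best known for efflux pumps that lower the intracellular level of cytotoxic drugs, and cyclophosphamide metabolites are themselves handled in part as glutathione conjugates.

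Genes of the family passed a low threshold in E0771 cells about as often as genes at large. Of the 50 genes, 23 had a mean over the 4 groups above 0.5 FPKM, 26 lay at or under 0.5 FPKM, and Abca15 was listed at 0 in every group. Of all 24197 rows, 10765 genes were above 0.5 FPKM and 8497 were at or under it without being 0 throughout. The genes above 10 FPKM in every group were Abce1, Abcf1, Abcf2, Abcc1, Abcb6 and Abcb10. The family's FPKM summed to 262 in control, 250.0 with 4HC, 243 with 4HC + anti-IFNAR1 and 253 with IFNβ, and subfamilies E and F held 20.8% and 35.2% of the control sum.

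**Figure D1:**
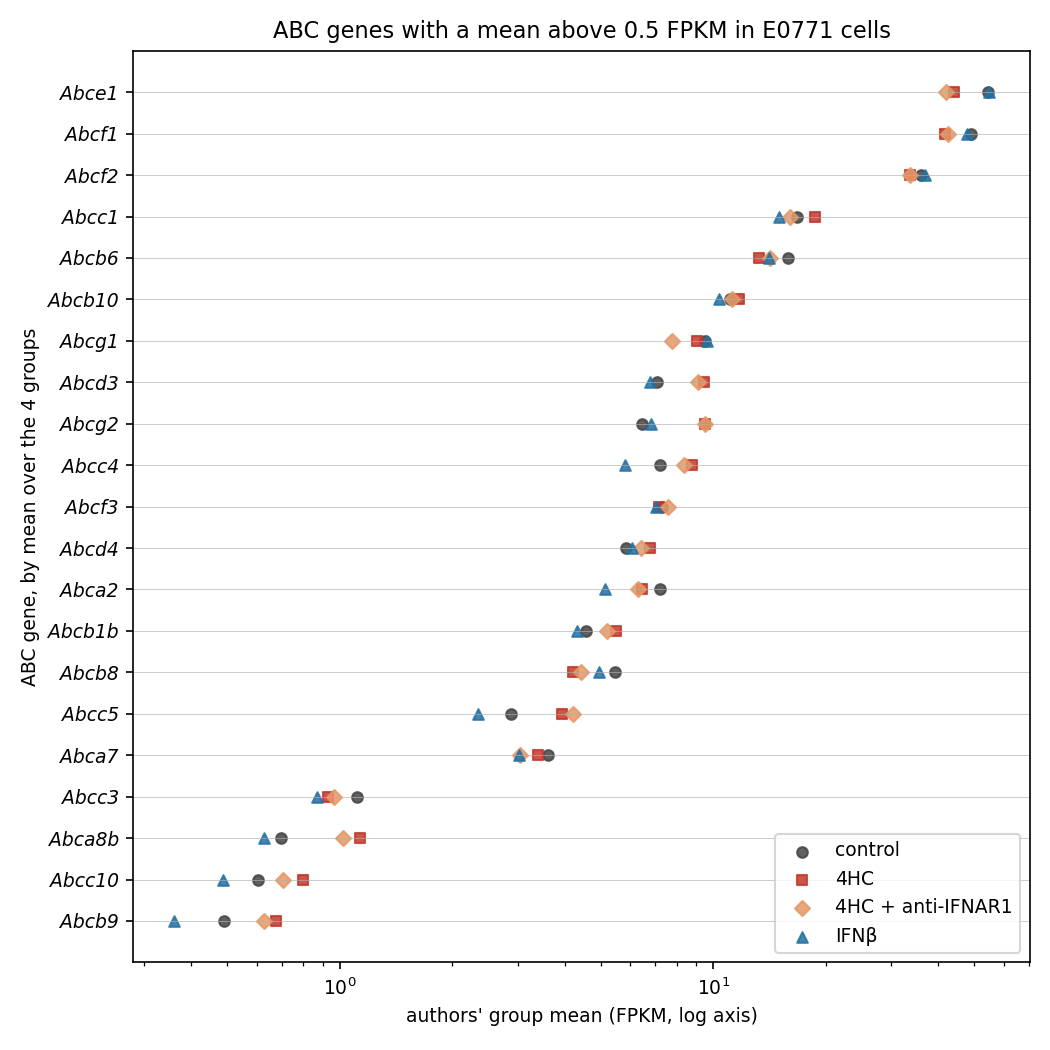
The authors' group mean in FPKM (log axis) of 21 of the 23 ABC genes with a mean over the 4 groups above 0.5 FPKM, 1 row per gene, with 1 symbol for each of the control, 4HC, 4HC + anti-IFNAR1 and IFNβ groups. Abce1 stands at the top with 42.0 to 54.7 FPKM and Abcb9 at the bottom with 0.360 to 0.676 FPKM, and for most genes the 4 symbols lie close together.

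No expressed ABC gene differed by more than 2-fold between groups in any of the 4 comparisons. With 4HC against control, 0 of the 23 genes passed a fold of 2 (ratios taken after adding 0.1 FPKM to each mean), where 4.24% of all genes above 0.5 FPKM were past it upward and 0.362% downward. With 4HC + anti-IFNAR1 against control the count was 0, against 3.72% upward and 0.362% downward over all genes. With IFNβ against control it was 0, against 1.97% upward and 0.242% downward. With 4HC + anti-IFNAR1 against 4HC it was 0, against 0.279% upward and 1.41% downward. These shares are small, so a list of 23 genes with no call lies near the background in every comparison. A lower fold of 1.5 was passed upward with 4HC by 1 of the 23, Abca8b, where the share of all genes was 9.33%.

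Within that range the 23 genes spread in both directions with 4HC. Their log2 ratios ran from -0.37 (Abcb8) to 0.63 (Abca8b), with a median of 0.08, beside a median of -0.02 over all genes above 0.5 FPKM and a range of -0.38 to 0.55 for the middle 80% of those genes. In this comparison 12 were listed higher and 11 lower, and 47.6% of all genes above 0.5 FPKM were listed higher. In the comparison of 4HC + anti-IFNAR1 with control, 11 were listed higher and 12 lower (median log2 ratio -0.06), against 51.1% of all genes higher. Both comparisons use the same 3 control cultures.

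**Figure D2:**
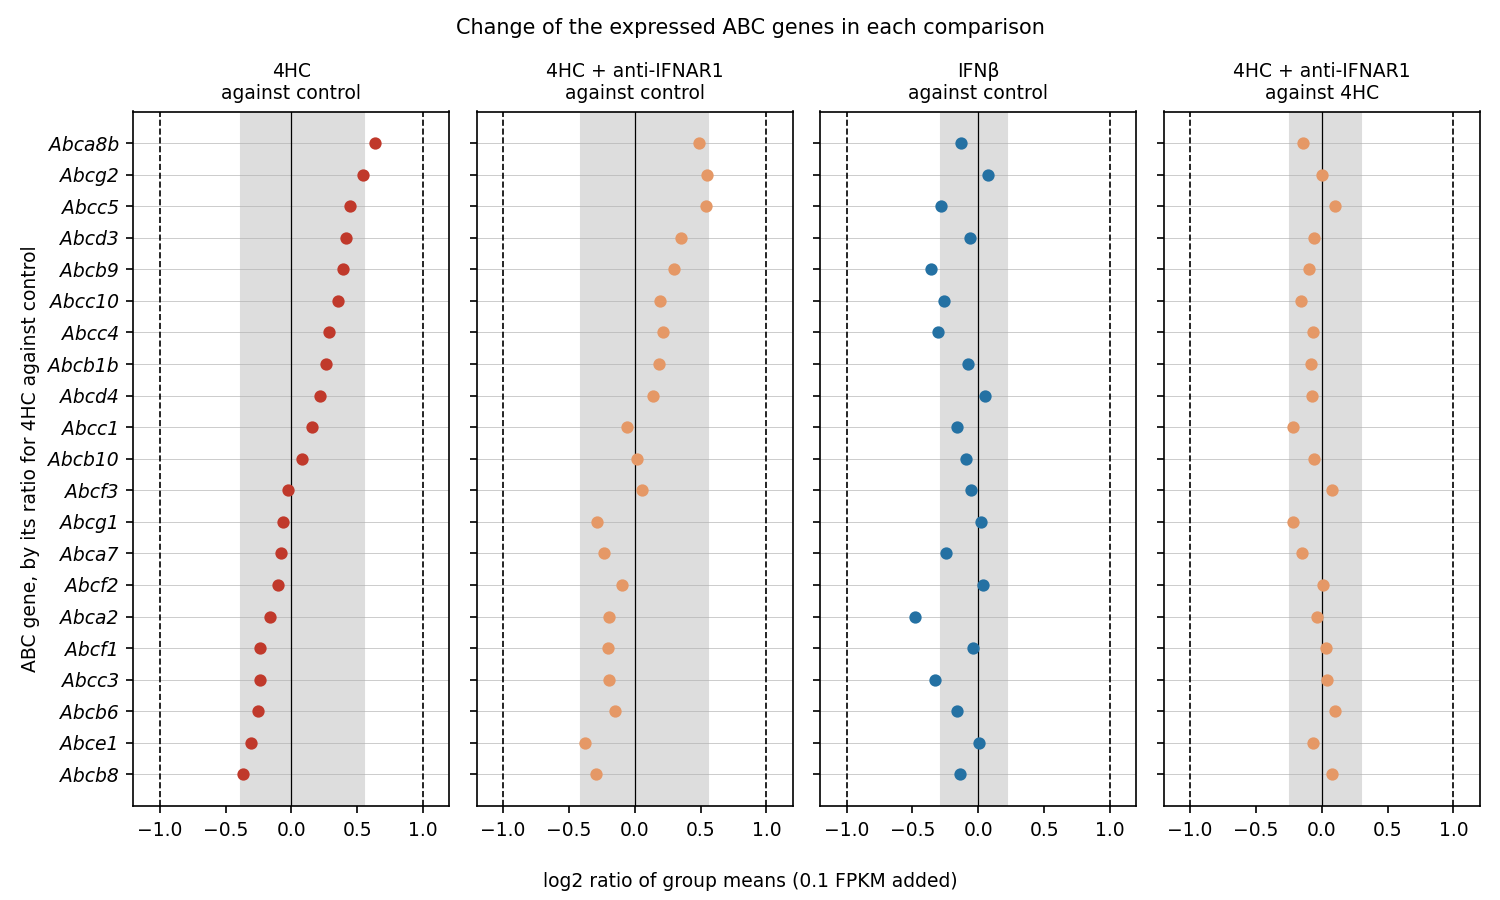
Log2 ratio of group means, after adding 0.1 FPKM, for 21 of the 23 expressed ABC genes in each of 4 comparisons, 1 point per gene; dashed lines mark a fold of 2 and the grey band holds the middle 80% of all 10765 genes above 0.5 FPKM. No point crosses a dashed line, and with 4HC the points run from -0.37 for Abcb8 to 0.63 for Abca8b.

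Among the efflux pumps most linked to drug resistance, 7 of 9 genes were expressed, and 6 of the 7 were listed higher with 4HC than in control, none past 2-fold, where 47.6% of all genes above 0.5 FPKM were listed higher. The median log2 ratio of the 7 was 0.28, beside -0.02 over all those genes. The same 7 had a median of 0.19 with 4HC + anti-IFNAR1 and of -0.26 with IFNβ, where all but Abcg2 were listed lower than in control and Abcg2 joined them when the group means were scaled to equal sums. With IFNβ 43.0% of all genes above 0.5 FPKM were listed higher, and the all-gene medians were 0.01 with 4HC + anti-IFNAR1 and -0.03 with IFNβ. Abcg2, the breast cancer resistance protein that exports topoisomerase poisons and urate, had 6.46 FPKM in control, 9.48 with 4HC, 9.48 with 4HC + anti-IFNAR1 and 6.80 with IFNβ. Both groups given 4HC thus stood 1.46-fold above control at 1 level, and the IFNβ group lay near control. This log2 ratio of 0.55 sat at percentile 89.9 of all expressed genes with 4HC. The gene spans chr6:58546665-58642445 in build mm9, the build of the table.

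Abcc5, an exporter of cyclic nucleotides and nucleotide analogs, followed a similar course. It had 2.87 FPKM in control, 3.94 with 4HC, 4.22 with 4HC + anti-IFNAR1 and 2.35 with IFNβ. The 2 groups with 4HC were the high ones, at 1.36-fold and 1.45-fold of control, and IFNβ was the low one. Abcc4, which exports cyclic nucleotides and prostaglandins, had 7.19 FPKM in control, 8.77 with 4HC, 8.35 with 4HC + anti-IFNAR1 and 5.79 with IFNβ. Its log2 ratio was 0.28 with 4HC and -0.31 with IFNβ, the latter at percentile 8.1 of all expressed genes. Abcc1, the exporter of glutathione conjugates and leukotriene C4, was the pump with the highest level. It had 16.8 FPKM in control, 18.7 with 4HC, 16.1 with 4HC + anti-IFNAR1 and 15.0 with IFNβ, so that 4HC gave the highest of 4 close values. Abcc10, a pump for taxanes, was near the limit of expression with 0.604, 0.798, 0.705 and 0.487 FPKM in control, 4HC, 4HC + anti-IFNAR1 and IFNβ. Abcc3, which carries conjugated bile salts and glucuronides, was the 1 pump listed lower with 4HC. It had 1.12 FPKM in control, 0.932 with 4HC, 0.963 with 4HC + anti-IFNAR1 and 0.868 with IFNβ.

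P-glycoprotein, the archetypal multidrug pump, is encoded in mice by the neighbouring genes Abcb1a and Abcb1b, and E0771 cells carried almost only the second. Abcb1b (chr5:8798146-8866314, mm9) had 4.57 FPKM in control, 5.50 with 4HC, 5.20 with 4HC + anti-IFNAR1 and 4.33 with IFNβ. Abcb1a (chr5:8660091-8748570, mm9) had 0.00838 FPKM in control, 0.112 with 4HC, 0.103 with 4HC + anti-IFNAR1 and 0.00522 with IFNβ. Its values with 4HC were thus higher in both groups, at levels that correspond to 0.0419 fragments per 1000000 reads in control and 0.559 with 4HC over its longest GENCODE transcript of 4997 bases. The 2 transcripts share 7.49% of the 100-base words of Abcb1a and 8.72% of those of Abcb1b, and how fragments from shared stretches were assigned is not given in the sources used here. The longest shared stretch is 338 bases of coding sequence, and its first 120 bases are shown in capitals, after 30 bases in lower case that differ at 4 positions, because a fragment inside it fits both genes (GENCODE M21 transcripts, GRCm38).
Abcb1a: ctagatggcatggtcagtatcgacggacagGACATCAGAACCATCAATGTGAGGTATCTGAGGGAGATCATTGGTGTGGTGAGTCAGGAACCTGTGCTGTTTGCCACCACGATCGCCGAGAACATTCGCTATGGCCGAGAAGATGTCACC
Abcb1b: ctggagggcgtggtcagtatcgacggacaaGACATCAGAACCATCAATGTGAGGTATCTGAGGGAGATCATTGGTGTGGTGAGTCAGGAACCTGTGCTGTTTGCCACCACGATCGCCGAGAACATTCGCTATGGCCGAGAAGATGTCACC
The third gene of this stretch of chromosome 5, Abcb4, a phosphatidylcholine exporter of liver, was listed at 0 in control and with IFNβ. Abcc2, the canalicular pump for conjugates, was the other pump under the limit and had 0.00185 FPKM in control, 0.0298 with 4HC, 0.0141 with 4HC + anti-IFNAR1 and 0.00455 with IFNβ.

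Of the 16 genes of subfamily A, mostly lipid transporters, 3 were above 0.5 FPKM, and with 4HC 1 was listed higher and 2 lower. Abca8b, a large transporter linked to cholesterol efflux, had 0.696 FPKM in control, 1.14 with 4HC, 1.02 with 4HC + anti-IFNAR1 and 0.625 with IFNβ. The 2 groups with 4HC were high and the other 2 low, with ratios of 1.55-fold and 1.41-fold to control. Abca8b lies on chromosome 11 beside Abca8a, Abca9, Abca6 and Abca5, and of these neighbours only Abca9 exceeded 0.1 FPKM, at 0.245 to 0.297 FPKM. Abca2, an endolysosomal lipid transporter first known for resistance to a steroid-linked alkylator, had 7.21 FPKM in control, 6.45 with 4HC, 6.28 with 4HC + anti-IFNAR1 and 5.13 with IFNβ. IFNβ gave its lowest value, a log2 ratio of -0.48 that was the lowest of the 23 genes in that comparison and sat at percentile 2.0 of all expressed genes. Abca7, a phospholipid transporter, was listed at 3.60, 3.40, 3.05 and 3.03 FPKM in control, 4HC, 4HC + anti-IFNAR1 and IFNβ.

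Of the 7 genes that export sterols and phospholipids at the cell surface, Abca7 and Abcg1 were expressed. Abcg1, which delivers sterol to high-density lipoprotein, had 9.48 FPKM in control, 9.05 with 4HC, 7.77 with 4HC + anti-IFNAR1 and 9.63 with IFNβ, so that only the antibody group stood low. Abca1, which loads lipid-free apolipoprotein, was listed at 0.0370, 0.0310, 0.0320 and 0.0478 FPKM, in the same order of groups. Abcg4, Abcg5 and Abcg8, further sterol half-transporters, stayed at or under 0.252 FPKM. Both Abca1 and Abcg1 are textbook targets of the sterol receptors LXRα and LXRβ. Of 11 LXR pathway genes outside the family, 10 were expressed, none past 2-fold with 4HC, where their median log2 ratio was -0.23. Over all genes above 0.5 FPKM, 4.24% were past 2-fold upward and 0.362% downward with 4HC, and the median was -0.02. The genes of LXRβ and LXRα, Nr1h2 and Nr1h3, had log2 ratios of 0.11 and -0.26 with 4HC. The lipogenic regulator Srebf1 had 22.7 FPKM in control, 11.5 with 4HC, 11.7 with 4HC + anti-IFNAR1 and 18.7 with IFNβ, and the desaturase Scd2 had 105, 60.3, 58.8 and 73.3. For both, the 2 groups with 4HC were the lowest. The IFNβ group also stood below control, with log2 ratios of -0.27 for Srebf1 and -0.51 for Scd2. Scd1, with 21.4 FPKM in control and 10.3 with 4HC + anti-IFNAR1, was the 1 gene of this list past 2-fold, downward, in that comparison. The share of all genes above 0.5 FPKM past 2-fold downward there was 0.362%.

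Of the mitochondrial half-transporters described here, Abcb6 and Abcb8 were listed lower with 4HC and Abcb10 stayed close to control. Abcb6, a porphyrin transporter, had 15.8 FPKM in control, 13.2 with 4HC, 14.2 with 4HC + anti-IFNAR1 and 14.1 with IFNβ. Abcb8, linked to mitochondrial iron, was listed at 5.46, 4.20, 4.44 and 4.95 FPKM, with control the highest and 4HC the lowest. Abcb10, a transporter of heme synthesis in red cell precursors, had 11.1, 11.7, 11.2 and 10.4 FPKM. Glrx5, a gene of mitochondrial iron-sulfur assembly, had 46.6 FPKM in control, 42.5 with 4HC and 56.7 with 4HC + anti-IFNAR1.

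The peroxisomal transporter gene Abcd3 and the lysosomal genes Abcd4 and Abcb9 were listed higher with 4HC. Abcd3 (PMP70), which imports branched-chain and other acyl-CoA into peroxisomes, had 7.08 FPKM in control, 9.46 with 4HC, 9.08 with 4HC + anti-IFNAR1 and 6.76 with IFNβ. The 2 groups with 4HC were the high ones, at 1.33-fold and 1.28-fold of control. The peroxin genes Pex3 and Pex19, whose products place such proteins in the membrane, had log2 ratios of 0.18 and 0.00 with 4HC.

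Abcd4, which releases cobalamin from lysosomes, had 5.83 FPKM in control, 6.79 with 4HC, 6.43 with 4HC + anti-IFNAR1 and 6.06 with IFNβ. The gene of its partner in the lysosomal membrane, Lmbrd1, was listed at 2.39, 3.61, 3.88 and 2.38 FPKM, with both 4HC groups high. Abcb9, a lysosomal peptide transporter related to Tap1 and Tap2, had 0.490, 0.676, 0.625 and 0.360 FPKM.

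The ribosome-associated members had the highest levels of the family, and all 4 were listed lower with 4HC than in control, of which Abcf3 (log2 ratio -0.02) changed sign when the group means were scaled to equal sums. Over all genes above 0.5 FPKM, 47.6% were listed higher in this comparison. Abce1, which splits ribosomes after termination, had 54.5 FPKM in control, 44.1 with 4HC, 42.0 with 4HC + anti-IFNAR1 and 54.7 with IFNβ. Its 2 groups with 4HC were the low ones, with log2 ratios of -0.31 and -0.38, and the IFNβ group equalled control to within 0.01 on the log2 scale. Abcf1, a partner of initiation factor eIF2, was listed at 49.1, 41.7, 42.6 and 47.8 FPKM, in the same order of groups. Abcf2 had 36.1, 33.5, 33.7 and 36.9 FPKM, and Abcf3 had 7.29, 7.17, 7.58 and 7.02. With 4HC against control the log2 ratios of Abcf1 and Abcf2 were -0.235 and -0.10. All 4 genes thus lay within the range of the middle 80% of all genes above 0.5 FPKM, -0.38 to 0.55. The ribosome rescue genes Pelo and Hbs1l, which act with Abce1, were listed slightly higher with 4HC (log2 ratios 0.19 and 0.13), and Gcn1l1, which binds ribosomes and activates the kinase Gcn2, was lower (-0.27).

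The ABC proteins of antigen presentation had larger ratios than any expressed member in the IFNβ and 4HC comparisons, a difference that was not tested here. Tap1 and Tap2 form the peptide pump that feeds MHC class I and belong to the B subfamily by sequence, but their symbols fall outside the rule. Tap1 had 3.96 FPKM in control, 20.3 with 4HC, 4.38 with 4HC + anti-IFNAR1 and 37.3 with IFNβ. Tap2 had 13.3, 27.4, 17.0 and 31.2 FPKM. Both were thus past 2-fold with 4HC and with IFNβ, and under the antibody their log2 ratios to control were 0.14 and 0.35, while none of the 23 expressed family members was past 2-fold in any comparison. Tapbp, the tapasin gene, ran with them, at 16.9, 65.1, 27.3 and 55.6 FPKM, as did the immunoproteasome gene Psmb8 at 5.77, 24.8, 10.5 and 27.0. Of 14 partner genes followed beside the family, 12 were expressed, and these 2 were the ones past 2-fold. They were past it upward with 4HC and with IFNβ and downward between 4HC + anti-IFNAR1 and 4HC. Over all genes above 0.5 FPKM, the shares were 4.24% and 1.97% upward and 1.41% downward, in the same order. Cftr, the ABC protein that is a chloride channel, did not exceed 0.00439 FPKM.

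**Figure D3:**
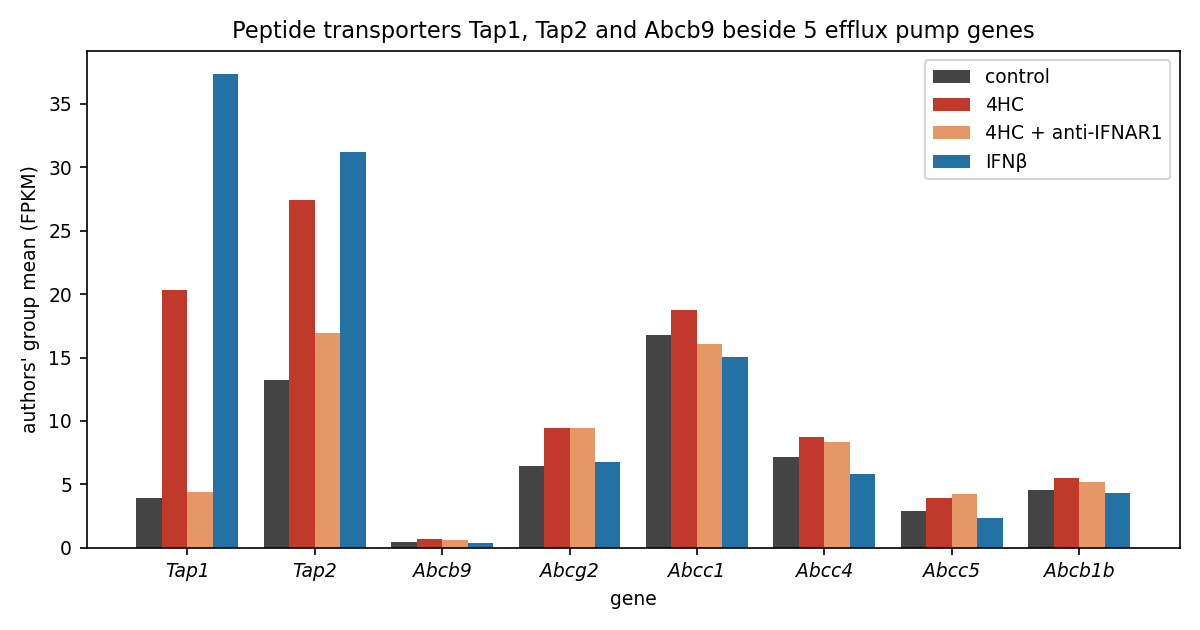
The authors' group mean in FPKM (linear axis from 0) for the peptide transporter genes Tap1, Tap2 and Abcb9 and 5 efflux pump genes, with 1 bar for each of the control, 4HC, 4HC + anti-IFNAR1 and IFNβ groups and no error bars because the table holds group means only. Tap1 stands at 3.96, 20.3, 4.38 and 37.3 FPKM, whereas Abcg2 stands at 6.46, 9.48, 9.48 and 6.80.

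With IFNβ, 7 of the 23 expressed members were listed higher and 16 lower than in control (median log2 ratio -0.09), beside 43.0% of all genes higher and a median of -0.03. With 4HC + anti-IFNAR1 against 4HC, 8 were listed higher and 15 lower (median -0.06), beside 48.9% of all genes higher and a median of -0.01. These small leanings depend on the scaling. When the 4 group means were rescaled to an equal sum over the table, 1 was higher and 22 lower with IFNβ, and 0 higher and 23 lower between the 4HC groups, while the median over all genes moved to -0.11 and -0.14. With 4HC against control the split became 13 higher and 10 lower, and with 4HC + anti-IFNAR1 against control 9 and 14. The share of all genes listed higher under equal sums was not counted. Centring on the median of all genes instead left every split unchanged, with 7 higher and 16 lower with IFNβ and 8 and 15 between the 4HC groups.

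The 26 low members were listed higher with 4HC more often than not, as were low genes at large. Of the 26, 20 were higher with 4HC, beside 73.2% of the 8497 low genes, and 19 were higher with 4HC + anti-IFNAR1, beside 73.3%. With IFNβ 9 were higher, beside 33.3%. With 0.01 FPKM added in place of 0.1, 8 of the 26 passed a fold of 2 upward with 4HC (background 32.1%), 6 with 4HC + anti-IFNAR1 (background 32.9%) and 1 with IFNβ (background 6.37%). These shares of members lie close to or below those of all low genes. Genes listed at 0 over the whole table numbered 8327 in control, 6339 with 4HC, 6408 with 4HC + anti-IFNAR1 and 8516 with IFNβ, and the part of this in the low members' values was not tested.

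Of the 26 low members, 22 stayed under 0.1 FPKM in every group. Abcc12, a little-studied relative of the drug pumps, had 0.00113 FPKM in control, 0.0845 with 4HC, 0.0477 with 4HC + anti-IFNAR1 and 0.0182 with IFNβ. Over its longest transcript this corresponds to 0.00552 fragments per 1000000 reads in control and 0.413 with 4HC. Abcc8, the sulfonylurea receptor of the beta-cell potassium channel, had 0.00407, 0.0704, 0.0431 and 0.00187 FPKM, while the gene of its channel partner, Kcnj11, was listed at 0 in every group. Abcb11, the bile salt export pump of liver, had 0.0225, 0.0635, 0.0334 and 0.0221 FPKM. All 3 were highest with 4HC at levels under 1 fragment per 1000000 reads. These 3 were named after their values were seen.

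**Figure D4:**
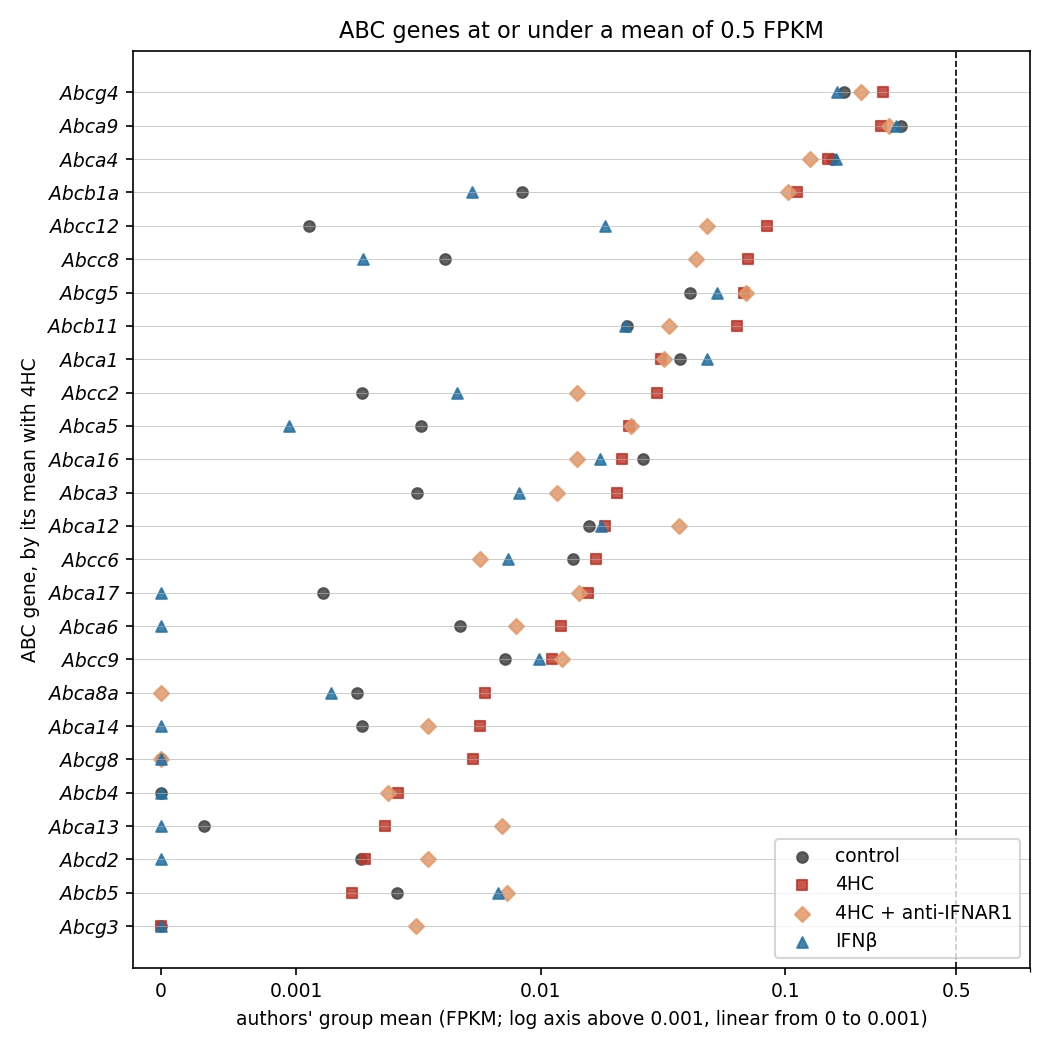
The authors' group mean in FPKM (log axis above 0.001 and linear from 0 to 0.001) for the 26 ABC genes at or under a mean of 0.5 FPKM, dashed line, with 1 symbol for each of 4 groups and genes ordered by their value with 4HC. Abcb1a stands at 0.00838 in control and 0.112 with 4HC, and Abcc12 at 0.00113 and 0.0845.

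Promoters of the family were searched for 3 motifs that bind factors of interferon, stress and oxidant responses. RefSeq windows from 250 bases before to 50 after a start site (GRCm38.p6, a later build than the table's) matched 38 of the 50 genes in 45 windows. The interferon-response core, GAAA repeated after 2 free bases and read on both strands, was in 0 of the 45 windows and in 3.44% of all 32851 windows. The AP-1 site TGACTCA was likewise in 0 of 45 and in 5.20% of all. The antioxidant response core, TGA and GCA with 4 free bases between them, recognised by Nrf2 with small Maf proteins, was in 5 of 45 (11.1%) and in 13.0% of all, so that the family held it about as often as promoters at large. The 5 windows belong to Abca7, Abca8b, Abcc2, Abcc4 and Abcc10. Abca7, with 2 matches, was expressed and listed lower with 4HC (log2 ratio -0.08), and Abcc2 was under 0.5 FPKM. Abcg2, Abcc5 and Abcd3, expressed and listed higher with 4HC, had no match in their windows. Further windows of Abcc4 and Abcc10 had none. The window listed for Tap1, a gene outside the rule and past 2-fold upward with IFNβ, held none of the 3 motifs. Since only 3.44% of all windows held the interferon-response core, its absence was not particular to the family. Nfe2l2, the gene of Nrf2, had 15.8 FPKM in control, 22.2 with 4HC, 22.0 with 4HC + anti-IFNAR1 and 16.0 with IFNβ, and Keap1, its inhibitor, had 7.03, 6.35, 5.28 and 7.32. The windows of Abcc10 (chr17:46327974-46328273, minus strand), Abcc4 (chr14:118706170-118706469, minus strand) and Abca8b (chr11:109995796-109996095, minus strand) are shown because these genes were expressed and listed higher with 4HC, with the match in capitals, and a match is a description of letters, not a bound site.
Abcc10: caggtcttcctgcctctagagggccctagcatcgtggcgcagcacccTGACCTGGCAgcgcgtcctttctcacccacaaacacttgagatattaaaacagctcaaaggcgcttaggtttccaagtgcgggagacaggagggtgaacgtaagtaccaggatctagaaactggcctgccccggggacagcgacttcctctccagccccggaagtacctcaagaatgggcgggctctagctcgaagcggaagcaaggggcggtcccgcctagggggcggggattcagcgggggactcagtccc
Abcc4: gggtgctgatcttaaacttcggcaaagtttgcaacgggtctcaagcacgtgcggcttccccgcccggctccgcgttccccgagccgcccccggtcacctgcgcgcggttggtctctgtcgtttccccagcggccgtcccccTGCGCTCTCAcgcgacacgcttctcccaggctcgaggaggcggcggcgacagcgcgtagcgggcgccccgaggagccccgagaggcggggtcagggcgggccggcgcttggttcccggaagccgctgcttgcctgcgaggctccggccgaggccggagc
Abca8b: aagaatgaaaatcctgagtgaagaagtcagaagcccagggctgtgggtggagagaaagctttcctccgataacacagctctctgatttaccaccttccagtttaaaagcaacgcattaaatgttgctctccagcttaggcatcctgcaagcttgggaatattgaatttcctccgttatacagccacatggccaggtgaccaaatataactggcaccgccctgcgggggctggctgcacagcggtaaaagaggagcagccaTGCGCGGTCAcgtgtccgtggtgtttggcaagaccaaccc
The nuclear receptors that drive pump genes in liver were near or at 0, with Nr1i2 (PXR) at most 0.00384 FPKM, Nr1i3 (CAR) at most 0.00748 and Ahr listed at 0 in every group.

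Markers of the cells themselves give the setting of these values. Krt8 was listed at 70.2 FPKM in control and 46.5 with 4HC and Vim at 785 and 752, whereas the epithelial markers Krt18, Krt19, Epcam and Cdh1 did not exceed 0.0925 FPKM in any group. Of the other mesenchymal markers, Col1a1 had 26.7 FPKM in control and 21.9 with 4HC. Col1a2 and Fn1 were near 0, with at most 0.0570 and 0.0209 FPKM in any group. The 5 leukocyte markers summed to 0.801 FPKM in control, 3.83 with 4HC, 3.66 with 4HC + anti-IFNAR1 and 1.04 with IFNβ, nearly all of it Cd68, with Cd3e listed at 0 and Ptprc at most 0.0114. The 3 endothelial markers summed to 0.603 to 0.704 FPKM. The part of these markers in the ABC values was not tested, and in bulk RNA fewer cells of a kind and less RNA per cell cannot be told apart.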

How the data were processed

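RNA was sequenced from 12 cultures of E0771 cells in 4 groups of 3, as stranded poly(A) libraries. Per the submitters' processing notes the authors used TopHat2, featureCounts and edgeR with mouse build mm9, with no versions given. The authors deposited 1 table whose FPKM values are group means without values per library. It also holds 4 sets of the authors' own ratio, fold-change and adjusted P columns, which were not used. Depth per library is not in the table, and the study's own library statistics were not used, so no counting error is given.

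Here log2 ratios were taken after adding 0.1 FPKM, for genes with a mean over the 4 groups above 0.5 FPKM, and a fold of 2 counted as past the threshold. No test was run, since the table holds no values per library. Genes named were members past 2-fold, the 2 highest of each subfamily, the multidrug pumps and fixed lists of partners. Other members of role lists were named where their group was described. Members and lists were chosen with earlier results of these data known. Alternatives were other pseudocounts, filters, a fold of 1.5 and 2 scalings. Fragments per 1000000 reads are FPKM times the longest GENCODE M21 transcript, whose length can differ from the authors' gene model. All 50 members matched a transcript. Several locations are listed for 6 members. Values of 2 expressed members and 1 partner gene are not reported here, though counts, medians and sums include them. Planned protein sequences were not used here. Python 3.11.15, pandas 2.3.3, numpy 2.4.6 and matplotlib 3.10.9 were used, and the calling step was tested on simulated data.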

Additional observations from a re-analysis of the deposited data

How the results depend on the processing

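No ABC gene above 0.5 FPKM was past 2-fold in any of the 4 comparisons as reported, and the count of 0 also held with a pseudocount of 0.01 or 1 FPKM, without a filter, with a mean above 1 FPKM, after centring on the median of all genes, and with equal sums over the table. Some of these settings could not have raised the count. A pseudocount of 1 FPKM shrinks every ratio, and a mean above 1 FPKM keeps only a part of the same 23 genes. Without a filter, the 22 low members under 0.1 FPKM in every group could not pass 2-fold with 0.1 FPKM added. A fold of 1.5 gave 1 gene with 4HC against control and 0 in the other comparisons. Dropping the filter together with a pseudocount of 0.01 FPKM, an alternative chosen after seeing the data like that of equal sums, gave 8 genes with 4HC against control, 6 with 4HC + anti-IFNAR1 against control, 1 with IFNβ against control and 0 with 4HC + anti-IFNAR1 against 4HC. The added genes all lay at or under 0.5 FPKM, where the smaller pseudocount enlarges ratios. Of 400 recomputed log2 ratios of 25 members, 396 stayed on their side of 2-fold and 4, of Abcb1a and Abcc2 with the small pseudocount, passed it upward in both 4HC groups against control. Equal sums moved the median of all genes from -0.01 to -0.14 between the 4HC groups and turned the sign of 8 members there, the largest at 0.10 on the log2 scale. No paired analysis was possible because the table holds no values per library. For the same reason no culture could be left out, and the group means used here do not show the spread between cultures.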
